A study of Mus musculus with 5 samples.

Results

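The genes described here encode the proteins of the mitochondrial ribosome and of the machinery that brings proteins into mitochondria. They were all genes whose symbol starts with Mrpl, Mrps, Timm or Tomm and that had at least 1 array probe assigned to that gene alone with a value on all 5 arrays. This gave 97 of the 8692 genes measured, with 200 of 13876 such probes: 46 Mrpl genes, 27 Mrps genes, 15 Timm genes and 9 Tomm genes. No gene of these families on the array was lost, although 9 of their 209 probes had an empty value and were left out. The choice used names only and no measured value. Of the 97 genes, 57 had more than 1 probe and 40 had a single probe.

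The RNA came from macrophages that had been differentiated in vitro from the bone marrow of BALB/c mice with human colony-stimulating factor 1. The series holds 5 two-channel arrays, 1 for each time: an array at 0 h without lipopolysaccharide (LPS), and arrays after 0.5, 2, 7 and 21 h in S. minnesota LPS at 10 ug/ml. The other channel of each array held RNA of whole C57BL6/J embryos at day 17.5, which served as the common reference. There were no replicates and there was no culture without LPS at the later times, so LPS and the time spent in culture cannot be told apart, and no test between times was possible. The number of mice behind the marrow is not stated in the labels.

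Mitochondria keep a small genome that encodes core subunits of the respiratory chain and of ATP synthase, and these are translated on a dedicated ribosome inside the organelle. Its RNAs come from the mitochondrial genome, but all of its proteins are encoded in the nucleus: the Mrpl proteins form the large subunit and the Mrps proteins the small subunit, with some exceptions to the names. Like nearly all mitochondrial proteins they are made in the cytosol and enter through the TOM complex of the outer membrane. The TIM23 complex then passes proteins into the matrix, the TIM22 complex inserts carriers into the inner membrane, and small Tim chaperones escort hydrophobic precursors between the membranes. Macrophages exposed to LPS are known for a shift of energy metabolism from respiration towards glycolysis.

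The promoters of these genes share short sequences that the choice by name did not use. RefSeq windows of 300 bases (250 before and 50 after the start, GRCm38.p6) were found for 86 of the 97 genes, 94 windows in all. On either strand, the ETS core CCGGAAG, recognised by the GABP family, stood in 37.2% of these windows, against 16.2% of the windows of all measured genes and 8.86% of all windows. The YY1 core AAGATGGC stood in 13.8% against 4.26% and 2.75%, and the NRF1 core GCATGCGC in 9.57% against 4.68% and 2.71%. At least 1 of these 3 stood in 52.1% against 22.9% and 13.3%. Related gene sets carried them too: at least 1 stood in 52.9% of 68 windows of cytosolic ribosomal proteins (ETS 38.2%, YY1 11.8%, NRF1 2.94%) and in 40.0% of 70 windows of the respiratory chain and ATP synthase (ETS 21.4%, YY1 14.3%, NRF1 12.9%). The CCAAT box and the E-box CACGTG were about as frequent as elsewhere, at 36.2% against 37.4% of the windows of measured genes and at 10.6% against 9.51%. The median GC content was 58.5% in these windows and 59.3% in those of all measured genes. These matches are descriptions of letters and were not tested.

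In 8 of the 94 windows 2 or more of the ETS, NRF1 and YY1 cores occurred, with no overlap between different motifs. The following stretches were chosen because they show these combinations or repeats in each family, with capitals for the matches (CTTCCGG is the ETS core and GCGCATGC the NRF1 core read from the other strand). They lie on the plus strand at chr11:58171601-58171648 (Mrpl22), chr5:31613929-31613964 (Mrpl33), chr17:46110968-46111032 (Mrps18a), chr13:99344728-99344817 (Mrps27), chr2:84826995-84827053 (Timm10) and chr15:79670811-79670889 (Tomm22), all in GRCm38.p6.
Mrpl22: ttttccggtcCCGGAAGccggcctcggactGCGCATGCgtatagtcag
Mrpl33: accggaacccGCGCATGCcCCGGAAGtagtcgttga
Mrps18a: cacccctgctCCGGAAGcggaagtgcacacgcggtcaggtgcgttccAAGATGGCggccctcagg
Mrps27: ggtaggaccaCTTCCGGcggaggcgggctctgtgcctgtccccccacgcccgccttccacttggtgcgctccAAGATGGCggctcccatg
Timm10: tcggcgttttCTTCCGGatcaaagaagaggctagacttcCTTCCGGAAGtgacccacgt
Tomm22: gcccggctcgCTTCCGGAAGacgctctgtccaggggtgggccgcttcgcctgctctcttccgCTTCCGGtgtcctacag
Mrpl22 and Mrpl33 pair an ETS core with an NRF1 core, and Mrps18a and Mrps27 pair an ETS core with a YY1 core. Timm10 and Tomm22 each carry 3 ETS matches, of which 2 overlap as the palindrome in capitals.

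The deposited value of a probe is a signed log ratio of the 2 channels. The sources used here give neither its base nor its direction. Positive ratios are read as more RNA in macrophages than in embryos; this reading is probable but unproven. It rests on 18 measured markers of embryonic tissue, all below 0 on every array (medians -0.96 to -0.69), against 11 macrophage-lineage markers with medians of 0.11 to 0.54. The macrophage list was mixed: Lyz2, a macrophage lysozyme, stood between 1.18 and 1.52, whereas Cd68, a lysosomal macrophage glycoprotein, stood between -0.36 and -0.00. With the opposite direction every sign below would turn. In a bulk ratio, more cells with a transcript and more transcript per cell cannot be told apart.

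After each array was centred on its median, the change of a gene was its ratio at a time minus its ratio at 0 h, averaged over its probes. The only error these arrays offer is how far probes of one gene differ. For the 3034 genes with more than 1 probe, the difference between the changes of the first 2 probes of a gene was taken. The SD of this difference over genes, divided by the square root of 2, was 0.27, 0.38, 0.23 and 0.23 units at 0.5, 2, 7 and 21 h. A gene was called higher or lower when its change reached 2 of these SDs, that is 0.55, 0.75, 0.46 and 0.47 units. Counting this way sets a size and is not a test.

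Few genes of the mitochondrial ribosome and import machinery were called at any time. A gene that was not called may still have changed by less than the threshold. At 0.5 h 1 of the 97 genes was called higher and 0 lower, where 4.30% and 0.357% of all 8692 genes were called. At 2 h the counts were again 1 higher and 0 lower, against 4.84% and 0.230% of all genes. At 7 h 1 was higher and 0 lower, against 3.11% and 3.35%, and at 21 h 1 was higher and 0 lower, against 4.04% and 2.25%. The 4 calls fell on 4 different genes, Mrpl46, Mrpl44, Mrps17 and Mrps30, all named for the ribosome. None of the 24 Timm and Tomm genes was called at any time by this threshold. The remaining 93 genes were within the threshold at all 4 times, which share the same 0 h array.

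These shares do not set like against like, because averaging over probes narrows the changes and 57 of the 97 genes had more than 1 probe, against 3034 of all 8692. Among genes with more than 1 probe, 1.85%, 2.83%, 1.55% and 2.18% of all were called higher at 0.5, 2, 7 and 21 h, and 0, 0, 1 and 0 of the 57. Among genes with 1 probe the shares were 5.62%, 5.92%, 3.94% and 5.04%, and the counts 1, 1, 0 and 1 of the 40. When the threshold was divided by the square root of a gene's number of probes, 2 of the 97 genes were higher at 0.5 h (5.53% of all genes), 2 at 2 h (6.42%), 5 at 7 h (4.98%) and 2 at 21 h (6.30%). By that rule 1 was lower at 0.5 h (0.564% of all genes), 2 at 2 h (0.426%), 1 at 7 h (4.52%) and 0 at 21 h (3.41%). The genes it added were Timm17a at 0.5 h, Mrpl39 at 2 h, Mrpl37, Mrpl54, Mrps21 and Timm13 at 7 h, and Mrps21 at 21 h on the higher side. On the lower side it added Mrpl45 at 0.5 h and 2 h, Mrpl30 at 2 h and Mrpl50 at 7 h.

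**Figure D1:**
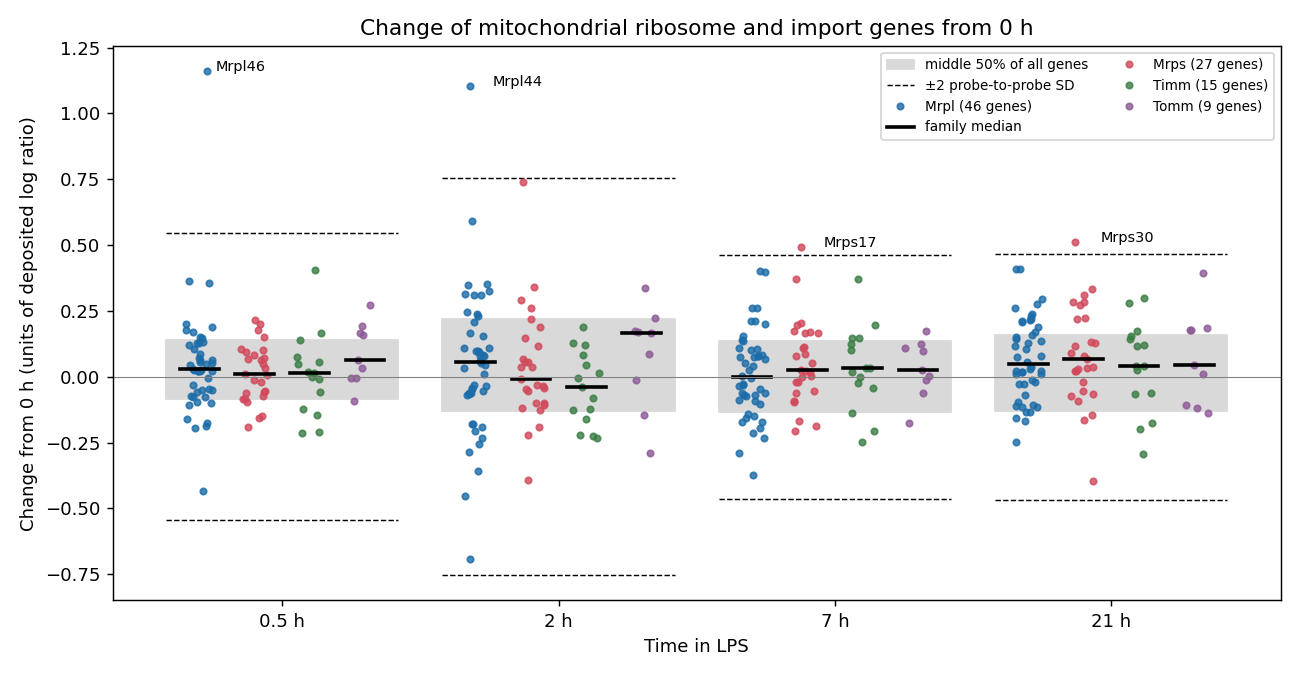
Change from 0 h of each of the 97 genes (points, in units of the deposited log ratio) at 0.5, 2, 7 and 21 h in LPS, coloured by family, with family medians as black bars, the middle 50% of all 8692 genes as grey bands and 2 probe-to-probe SDs as dashed lines. Mrpl46, Mrpl44, Mrps17 and Mrps30 are the points outside the dashed lines, each at a single time, and the family medians lie between -0.04 and 0.16.

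Mrpl46, a large-subunit protein, had the highest early value. Its ratios on the 0, 0.5, 2, 7 and 21 h arrays were 0.21, 1.37, 0.38, 0.04 and 0.04. The 0.5 h array alone was high, and the 2 latest arrays were below 0 h. The change at 0.5 h was 1.16 units on 1 probe, which would be 2.24-fold if the logarithm had base 2 and 14.5-fold if it had base 10. From 0.5 h to 2 h its ratio came down again, a step of -0.99.

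Mrpl44, a large-subunit protein with a fold related to RNase III, had its peak on the next array. Its ratios on the 0, 0.5, 2, 7 and 21 h arrays were 0.06, 0.42, 1.16, 0.14 and 0.35. The 2 h array was high and the 0.5 h and 21 h arrays were intermediate. The change at 2 h was 1.10 units on 1 probe (2.15-fold in base 2, 12.7-fold in base 10), and it was 0.67 after quantile normalization and 0.73 after cyclic loess, still past the threshold of each setting.

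Mrps17, a small-subunit protein with a bacterial counterpart, was called at 7 h. Its ratios on the 0, 0.5, 2, 7 and 21 h arrays were -0.33, -0.24, -0.34, 0.16 and -0.11. The 7 h array was the only one where this mean of 2 probes was above 0. Neither probe crossed 0: 1 ran from -1.13 to -0.42 and 1 from 0.17 to 0.74. Its 2 probes gave changes of 0.41 and 0.58 at 7 h and 0.22 and 0.22 at 21 h, so they moved alike at these times. They differed in sign at 0.5 h (-0.02 and 0.21) and at 2 h (-0.31 and 0.29). Their ratios also lay far apart (-0.83 and 0.17 at 0 h). The mean change of 0.49 fell under the threshold without centring (0.41), after cyclic loess (0.42), against the 0.5 h array (0.40) and against both early arrays averaged (0.45).

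Mrps30, which structures of the mammalian ribosome place in the large subunit despite its name, was called at 21 h. Its ratios on the 0, 0.5, 2, 7 and 21 h arrays were -0.12, -0.14, -0.06, 0.26 and 0.39. The 3 earlier arrays were below 0 and both late arrays above it. The change was 0.37 at 7 h, under the threshold, and 0.51 at 21 h on 1 probe. The call at 21 h was lost without centring (0.45), after quantile normalization (0.55) and against the 0.5 h array (0.53), where the last 2 settings have higher thresholds.

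Of these 4 genes only Mrps17 had a second probe, and the other 3 calls rest on 1 spot of each array. Just inside the threshold lay Mrps27, a small-subunit protein with pentatricopeptide repeats, whose ratio was 0.20, 0.30, 0.94, 0.31 and 0.51 in order of time. Its 2 h array was the highest and its change there was 0.74 on 1 probe. None of the promoter windows of Mrpl44, Mrpl46, Mrps17 and Mrps30 held an ETS, NRF1 or YY1 core in the exact letters above. The window of Mrps27, printed above, holds 2. At least 1 core stood in 49 of the 94 windows of the families (52.1%) and in 22.9% of those of all measured genes, so windows without one are common. These genes were picked by their values, and a link between motif and change was not tested.

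Among the large-subunit genes, Mrpl45 and Mrpl30 had the lowest changes at 2 h. Mrpl45, which lies near the tunnel exit where the ribosome meets the inner membrane, had ratios of 0.02, -0.42, -0.67, -0.05 and 0.14 in order of time. The 0.5 h and 2 h arrays were low and the late arrays were back near 0 h. Its probes gave -0.91 and -0.47 at 2 h, a mean of -0.69 that was within the threshold in the main setting and past it after quantile normalization (-0.59) and after removal of a running median in probe order (-0.82). Mrpl30 stood at -0.45 at 2 h, but its 3 probes ran from -1.05 to -0.03.

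Mrpl39, a large-subunit protein related to threonyl-tRNA synthetase, went the other way at 2 h. Its 2 probes were positive at all 4 times and gave 0.92 and 0.26 at 2 h, a mean of 0.59. The running median in probe order around these 2 probes itself changed by 0.38 and 0.17 at 2 h. The 2 probes of Mrpl54 were positive at all 4 times, and its mean change was 0.36, 0.31, 0.40 and 0.27. These 4 changes share the 0 h array and are not separate observations of a rise. The Mrpl54 ratio was -0.26 at 0 h and 0.10, 0.05, 0.14 and 0.02 on the later arrays. Mrpl4, whose bacterial counterpart lines the exit tunnel, had 0.17, 0.31, 0.40 and 0.41 on 1 probe, and Mrpl42 had 0.19, 0.31, 0.26 and 0.41 on 1 probe. None of these 4 genes reached the undivided threshold at any time.

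The lowest changes at 7 h in the large subunit belonged to Mrpl50 and Mrpl47. Mrpl50 had changes of 0.06, 0.01, -0.37 and -0.25, and both of its probes were negative at 7 h (-0.54 and -0.20) and at 21 h. Mrpl47 had 0.15, 0.23, -0.29 and -0.16. At 7 h the running median in probe order around the 2 Mrpl50 probes itself changed by -0.20 and -0.04. Around the 2 Mrpl47 probes it changed by -0.22 and -0.03. Mrpl57 ran alike on both probes, at 0.03 and 0.11 on the early arrays and -0.17 and -0.12 on the late ones. Mrpl12, which forms the stalk that binds translation factors, had 0.02, 0.08, 0.21 and 0.24, with all 3 probes positive at 7 h and at 21 h. Mrpl58, a release factor that became part of the large subunit, had a ratio below 0 on all 5 arrays (-0.54 to -0.31) and changes between -0.23 and -0.05.

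In the small subunit, Mrps26 had the lowest change at 2 h and Mrps12 at 21 h. Mrps26 had -0.19 at 0.5 h and -0.39 at 2 h, negative on both of its probes, and 0.13 at 21 h. Mrps12, the counterpart of a bacterial protein at the decoding centre, had ratios of 0.23, 0.24, 0.04, 0.21 and -0.17 in order of time. Only its 21 h array was below 0, with a change of -0.40 on 1 probe. Mrps21, the gene with the most probes, had mean changes of 0.15, 0.19, 0.17 and 0.22, and at 21 h its 8 probes were all positive, from 0.02 to 0.50. Mrps33 (0.34 at 2 h), Mrps11 (0.33 at 21 h) and Mrps10 (0.29 at 2 h and at 21 h) were further high values, each on 1 probe. The running median in probe order around the Mrps11 probe itself changed by 0.28 at 21 h, so much of that value is shared by neighbouring probes. Around the Mrps33 probe it changed by -0.04 at 2 h, and around the Mrps10 probe by -0.08 at 2 h and -0.02 at 21 h. Mrps31 was negative on both probes at all 4 times, with changes from -0.17 to -0.02. Mrps36, since assigned to the alpha-ketoglutarate dehydrogenase complex and not to the ribosome, had mean changes between -0.05 and 0.09. Its 4 probes ran from -0.16 to 0.25 at 7 h.

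The genes of the TIM23 complex had changes of both signs. Timm17a had the highest change of the family at 0.5 h, 0.41, but its 4 probes ran from -0.24 to 1.24. Its paralog Timm17b had 0.16, 0.08, 0.15 and 0.12, with probes of both signs at every time, and Timm23, the other core channel protein, stayed between -0.00 and 0.05. Timm50, a receptor for incoming presequences, had -0.22, -0.23, 0.03 and -0.20 on 1 probe, and Timm44, which tethers the import motor, had -0.14, -0.22, -0.21 and -0.06. Timm21, which links the translocase to the respiratory chain, had the lowest ratio of the family on every array, from -0.32 at 0 h to -0.62 at 21 h.

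In the TIM22 complex, the mean change of Timm22 itself stayed between -0.13 and 0.04, but its 4 probes ran from -0.42 to 0.26 at 2 h. Timm29 moved from -0.12 at 0.5 h to 0.15 at 21 h. Of the 6 small Tim chaperones measured, none was called by the undivided threshold. Timm13 had the highest change at 7 h, 0.37, with both probes positive (0.29 and 0.45) and past the threshold divided by probe number, but its probes disagreed at 21 h (-0.08 and 0.36). Timm9, a partner of Timm10, had -0.21, -0.23, -0.25 and -0.17 on 1 probe, and Timm10 itself had 0.02, -0.08, 0.20 and -0.06. The 2 probes of Timm10 stood at -0.53 and 0.37 at 2 h. Timm8b had 0.28 at 21 h from probes at -0.09 and 0.65. Timmdc1, an assembly factor of respiratory complex I that the name rule takes in, had 0.14, 0.13, 0.10 and 0.30.

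Of the outer-membrane genes, Tomm40, the channel of the TOM complex, had ratios of -0.07, -0.07, 0.10, 0.11 and 0.33 in order of time. Its 21 h array was the highest, with a change of 0.39 on 1 probe. Tomm22, the central receptor, had changes of 0.17, 0.22, 0.13 and 0.18, but at least 1 of its 5 probes was negative at every time. The mean change of the presequence receptor Tomm20 stayed between -0.01 and 0.03, but its 3 probes ran from -0.25 to 0.50 at 7 h. Tomm70a, the receptor for carrier precursors, had -0.09, 0.09, -0.18 and -0.12. Among the small subunits, Tomm7 had 0.16, 0.17, 0.10 and 0.18, Tomm5 had -0.29 at 2 h, and Tomm6 had 0.34 at 2 h. The ratio of Tomm6 was below 0 on all 5 arrays, from -0.51 to -0.12. Tomm34, a cytosolic co-chaperone of precursors, had 0.27, 0.17, 0.11 and 0.19, whereas Tomm40l, the paralog of the channel, had 0.19 at 0.5 h and -0.14 at both 2 h and 21 h.

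**Figure D2:**
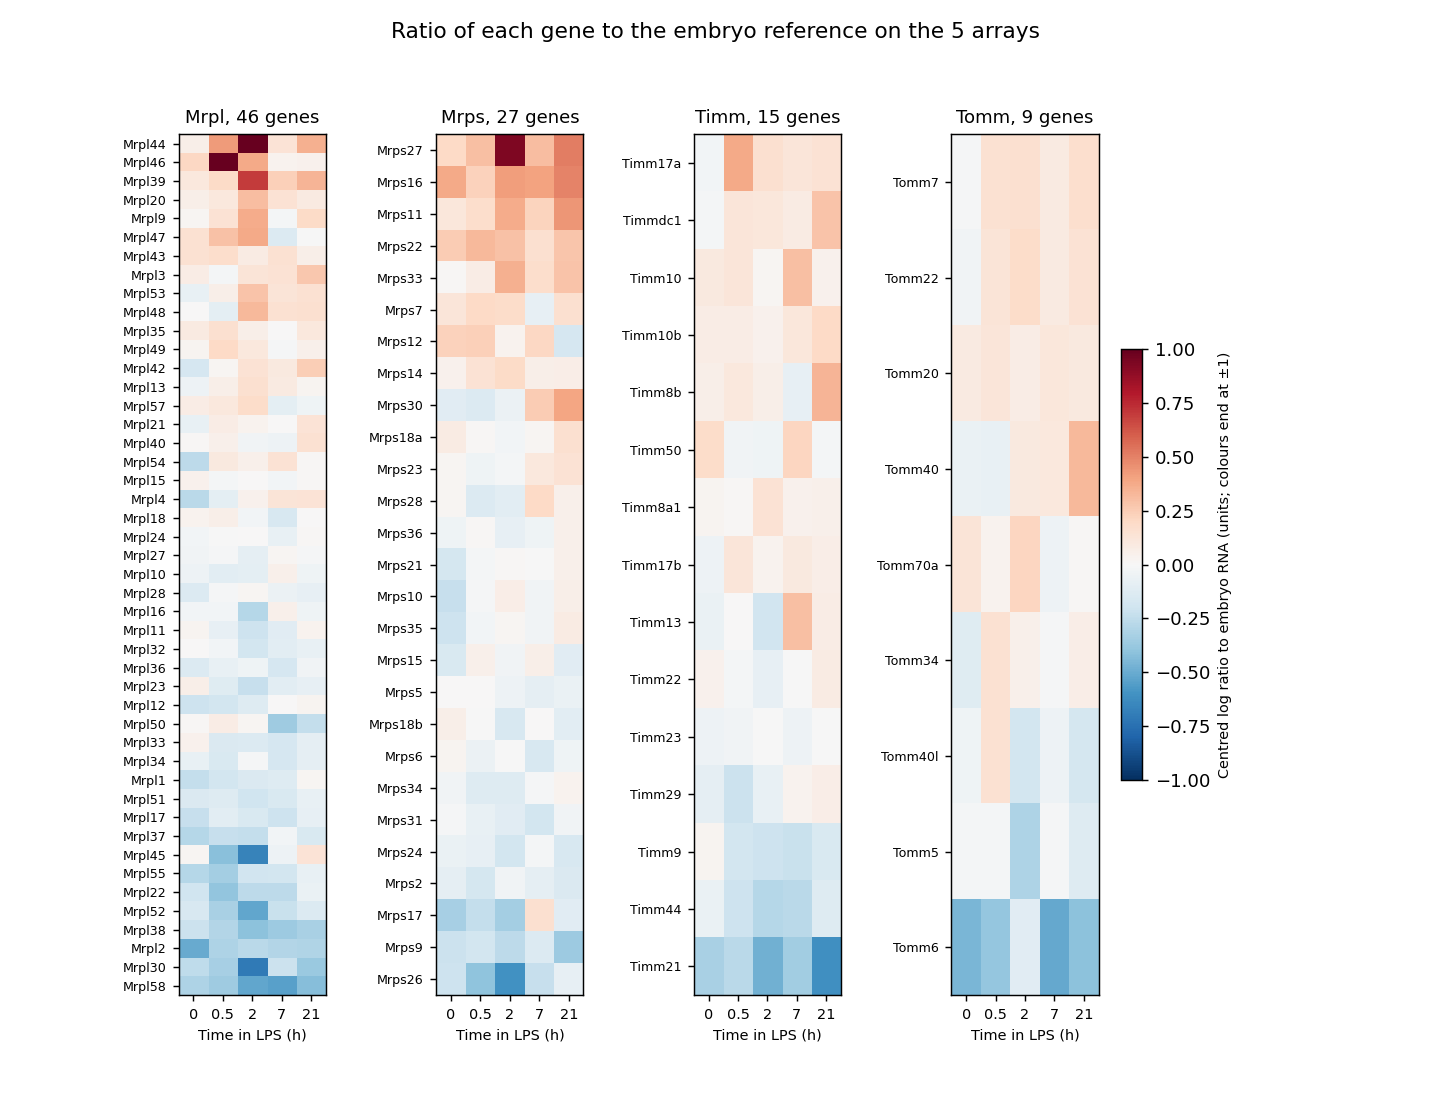
Centred log ratio to embryo RNA (colour, in units, ending at 1 on either side) of each of the 97 genes on the 5 arrays (columns, 0 to 21 h), by family and ordered by mean ratio. Mrpl46 at 0.5 h and Mrpl44 at 2 h are the darkest red cells, and most of the rest are pale: 85 of the 97 genes stayed within 0.5 units of 0 on all arrays.

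Set against the embryo, macrophage RNA held these transcripts at ratios near the middle of the array. On all 5 arrays 85 of the 97 genes (87.6%) stayed within 0.5 units of the centre, as did 73.8% of all genes. Family medians ran from -0.05 to 0.01 for Mrpl, from -0.02 to 0.05 for Mrps, from -0.02 to 0.06 for Timm and from -0.04 to 0.12 for Tomm. On the 0 h array the lowest ratio belonged to Mrpl2 (-0.51) and the highest to Mrps16 (0.38). The 2 probes of Mrpl2 stood at -0.03 and -0.98 there, and Mrps16 had 1 probe. Mrps16 stayed high on every array, between 0.23 and 0.50.

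In order of time the family medians of the change were 0.03, 0.06, -0.00 and 0.05 for Mrpl, 0.01, -0.01, 0.03 and 0.07 for Mrps, 0.02, -0.04, 0.03 and 0.04 for Timm, and 0.06, 0.16, 0.03 and 0.05 for Tomm, beside 0.01, 0.03, 0.00 and 0.01 for all genes. The 0.16 of Tomm at 2 h came from 9 genes. It was 0.01 against the 0.5 h array, 0.09 against both early arrays averaged, 0.04 after the running median was removed and 0.22 without centring. At 21 h all 4 family medians were above 0, but without centring those of Mrpl (-0.01), Timm (-0.02) and Tomm (-0.01) were below 0, as was Tomm after quantile normalization (-0.01) and against the 0.5 h array (-0.02). The 97 genes also spread less than genes in general: the SD of their changes was 0.18, 0.24, 0.16 and 0.17, against 0.29, 0.37, 0.25 and 0.25 over all genes. The spread is smaller where probes are averaged: among genes with more than 1 probe the SDs were 0.13, 0.19, 0.16 and 0.13 for the 57 genes and 0.19, 0.28, 0.19 and 0.19 for all 3034. A narrow spread was not particular to these families. The SDs were 0.13, 0.15, 0.12 and 0.14 for 70 cytosolic ribosomal proteins. For 77 genes of the respiratory chain and ATP synthase they were 0.18, 0.16, 0.18 and 0.18. The differences in spread were not tested.

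The step from 7 h to 21 h compares the 2 late arrays and does not use the 0 h array. Here 70 of the 97 genes (72.2%) had a positive step, against 57.1% of all genes, and the median step was 0.06 units against 0.02. By family the positive counts were 35 of 46 Mrpl, 19 of 27 Mrps, 10 of 15 Timm and 6 of 9 Tomm. The share was 68.0% to 75.3% under 4 other scalings, where all genes gave 52.2% to 64.1%. It was 65.0% over the 200 probes singly (56.2% of all probes), 66.7% of the 57 genes with more than 1 probe (56.2% of all such genes) and 80.0% of the 40 genes with 1 probe (57.6%). The threshold for this pair was 0.33 units, which 2.72% of all genes passed upward and 2.52% downward. Timm8b passed it upward (0.42) and Mrps12 downward (-0.38, 1 probe). Both Timm8b probes rose over this step, from -0.22 to 0.01 and from 0.06 to 0.66. Their changes from 0 h differed in sign at 21 h. Macrophage-lineage markers had a positive step in 9 of 11 genes (median 0.16) and embryonic markers in 7 of 18 (median -0.02); their part in this step was not tested.

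Both late arrays lay above all 3 earlier arrays in 16 of the 97 genes (16.5%), close to the 16.8% of all genes. They were Mrpl1, Mrpl3, Mrpl4, Mrpl10, Mrpl12, Mrpl37, Mrpl55, Mrps17, Mrps23, Mrps28, Mrps30, Mrps34, Timm10b, Timm13, Timm29 and Tomm40. Both lay below in 6 genes (6.19%), Mrpl46, Mrpl47, Mrpl50, Mrpl57, Mrps5 and Tomm70a, against 20.4% of all genes. These counts depend on the centring: without it they were 2 above and 34 below, against 5.13% and 37.8% of all genes. With centring, both late arrays lay above in 16 of 77 respiratory chain and ATP synthase genes (20.8%) and below in 5 (6.49%). Among 70 cytosolic ribosomal proteins they lay above in 0 and below in 13 (18.6%).

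**Figure D3:**
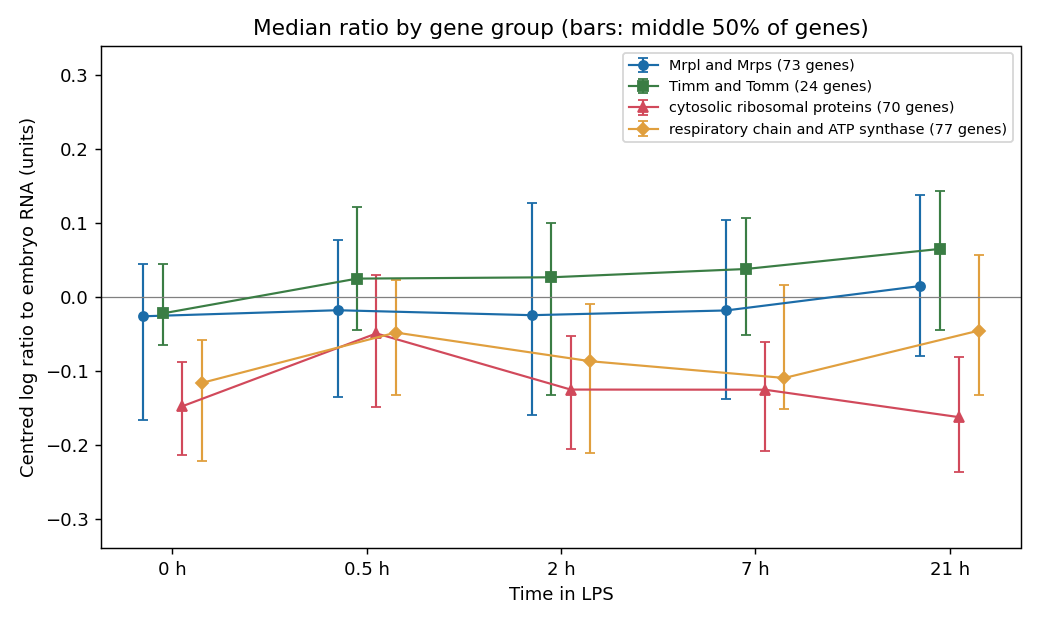
Median centred log ratio to embryo RNA (points, in units) on each array for the 73 Mrpl and Mrps genes, the 24 Timm and Tomm genes, 70 cytosolic ribosomal proteins and 77 genes of the respiratory chain and ATP synthase, with bars for the middle 50% of the genes. The medians of the Mrpl, Mrps, Timm and Tomm sets lie near 0 and those of the other 2 sets below 0 on every array. The bars of the Timm and Tomm set and of the cytosolic ribosome do not meet at 0, 7 and 21 h, nor do those of the Mrpl and Mrps set and the cytosolic ribosome at 21 h; the others overlap.

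Beside the mitochondrial ribosome, the median ratio of 70 cytosolic ribosomal proteins was below 0 on every array, at -0.15, -0.05, -0.13, -0.13 and -0.16 in order of time. For 77 genes of the respiratory chain and ATP synthase, many of them assembled with subunits the mitochondrial ribosome makes, it was -0.12, -0.05, -0.09, -0.11 and -0.05. The median changes of the respiratory genes were 0.05, 0.03, 0.07 and 0.07, and those of the cytosolic ribosome 0.09, 0.01, 0.01 and -0.04. From 7 h to 21 h the step was positive in 54 of 77 respiratory genes and in 32 of 70 cytosolic ribosomal genes. Few genes of these 2 sets were called either. At 0.5, 2, 7 and 21 h, 0, 0, 1 and 0 cytosolic ribosomal genes were called higher. Of the respiratory genes 1, 0, 1 and 1 were called higher, and 0 of either set lower. All genes gave 4.30%, 4.84%, 3.11% and 4.04% higher and 0.357%, 0.230%, 3.35% and 2.25% lower. The differences between these groups were not tested.

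Genes of the same pathways outside the 4 name families were called in a few cases, 2 lists of them at 2 h more often than the 4.84% higher and 0.230% lower of all genes. Of 12 mitochondrial translation factors and tRNA-handling genes, 2 (16.7%) were called higher at 2 h and 0 lower at any time. They were Mtif3, an initiation factor (0.82), and Gatc, a subunit of the enzyme that makes glutaminyl-tRNA (0.86), each on 1 probe. Among all genes with 1 probe, 5.92% were called higher at 2 h. The median change of the 12 genes at 2 h was -0.01, with 6 of them positive, and Gfm1 of the same list stood at -0.71. Of 13 mitoribosome assembly genes 1 (7.69%) was called, Nsun4, an RNA methyltransferase that acts on the small-subunit RNA, at -1.25 at 2 h. None of 10 mitochondrial tRNA synthetases and none of 3 ribosomal proteins with other names was called. Of 19 import partners 1 (5.26%) was called, Pmpcb, the catalytic subunit of the presequence protease, at 0.50 at 21 h on 1 probe. This is near the 4.04% of all genes and 5.04% of genes with 1 probe called higher at 21 h. Of 9 genes for expression of mitochondrial DNA and its nuclear regulators 1 (11.1%) was called. This was Ppargc1a, a coactivator that drives mitochondrial biogenesis, at -0.54 at 7 h on 1 probe. At 7 h 3.35% of all genes and 4.81% of genes with 1 probe were called lower. The genes for the factors whose motifs were searched had changes of -0.16 to -0.06 (Gabpa), 0.02 to 0.31 (Nrf1) and -0.00 to 0.10 (Yy1).

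**Figure D4:**
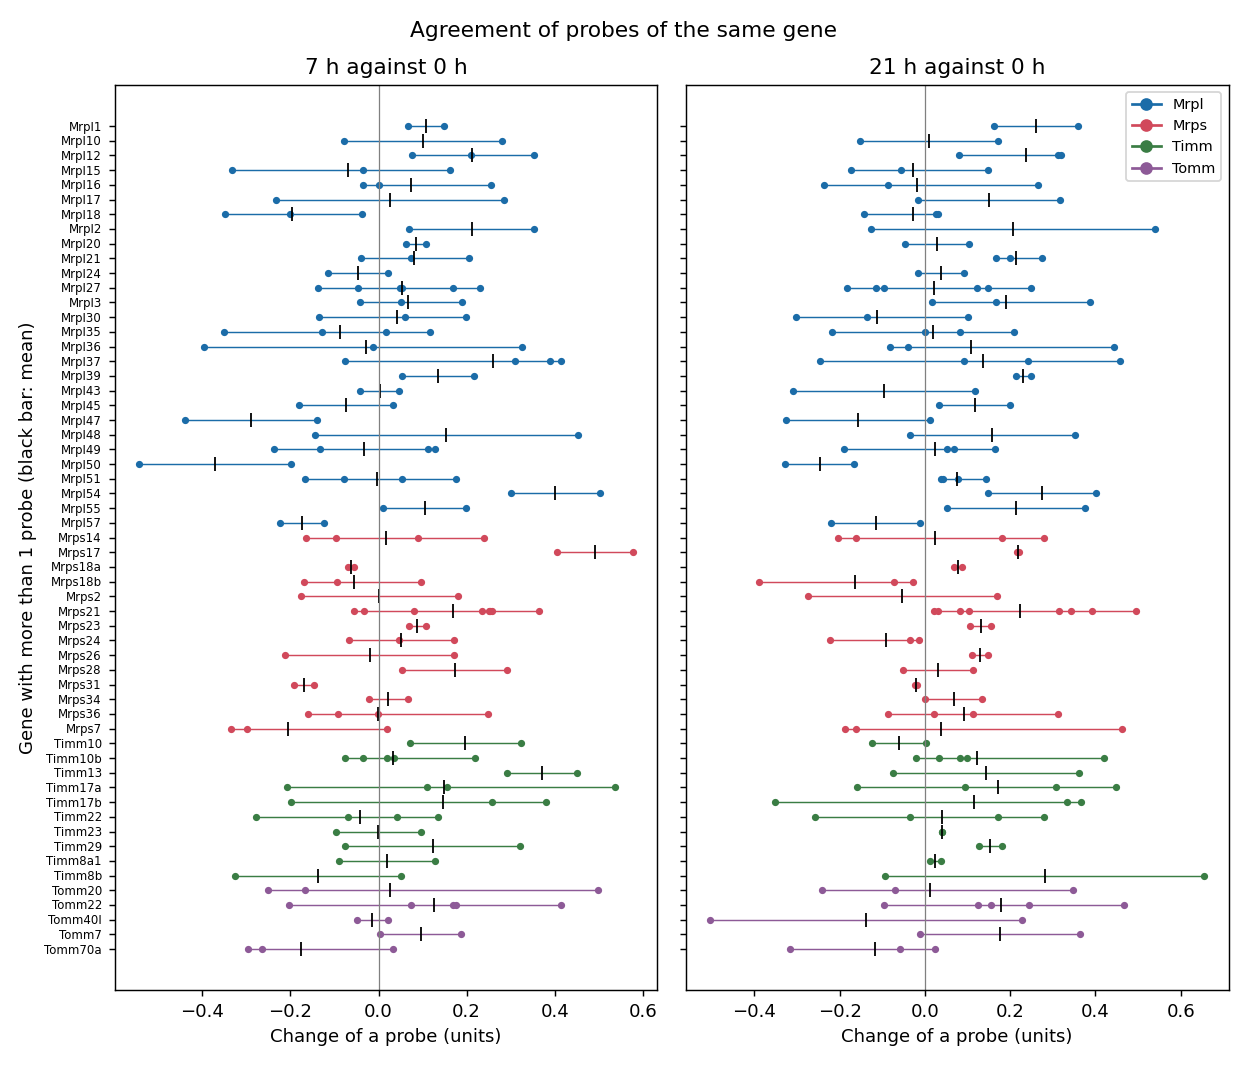
Change from 0 h (in units) of each probe (points) of the 57 genes with more than 1 probe, at 7 h and at 21 h, joined by a line per gene, with the gene's mean as a black bar and the family as colour. Most lines cross 0: all probes of a gene had the same sign in 19 of the 57 genes at 7 h and in 22 at 21 h.

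Probes of the same gene agreed poorly. All probes of a gene had the same sign in 15, 14, 19 and 22 of the 57 genes at 0.5, 2, 7 and 21 h. These are 26.3%, 24.6%, 33.3% and 38.6% of them, against 38.7%, 40.4%, 42.9% and 44.2% of all 3034 genes with more than 1 probe. Across genes, the changes of the first 2 probes correlated at -0.05, 0.00, 0.34 and 0.02 (57 genes, which share arrays and are not replicates), against 0.06, 0.10, 0.20 and 0.21 over all 3034 genes. Signs agreed at all 4 times in 5 genes, Mrpl39, Mrpl54, Mrpl57, Mrps18a and Mrps31. Over the 97 genes the ratios of pairs of arrays correlated at 0.47 to 0.74, highest between 7 h and 21 h.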

How the data were processed

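Each array compared macrophage RNA with whole-embryo RNA. Per the labels, dye was coupled to cDNA by an amino-allyl method, and Cy3 is the one dye they mention. The deposited table gives every probe a signed log ratio on each array, of unstated base, direction, background correction and normalization, so folds are given only as what base 2 or 10 would give. Column medians, in order of time, were 0.07, 0.12, 0.12, -0.02 and 0.01 over 18391 probes without an empty value, and 209, 681, 255, 285 and 207 of 19828 values were empty. Probes with 1 gene in the platform annotation numbered 14759; 170 had several genes and 4899 none. RefSeq knew 14628 of the gene IDs and changed 0 symbols.

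Arrays were centred on their medians and probes averaged by gene. The members, gene lists and call rule were chosen with earlier results of these data known. The rule for named genes took the 2 highest and 2 lowest changes of each family at each time, the 2 highest and 2 lowest ratios at 0 h, all called genes and all genes with more than 1 probe. Not every gene it takes is printed. Mrpl33, printed for its promoter, and Mrps5, counted among late arrays, fall outside it and were chosen after their values were seen. The number of arrays, 1 per time, limits the precision, and signal over background was not used here. Alternatives were no centring, quantile normalization, cyclic loess, removal of a running median over 201 probes, other baselines, probe filters and thresholds. The calculation was tested on simulated data with independent noise and planted changes larger than any threshold and any change of the genes described here. That test therefore says nothing about changes of the size reported. Python 3.11.15, numpy 2.4.6, pandas 2.3.3, matplotlib 3.10.9, R 4.3.3 and limma 3.58.1 were used.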

Additional observations from a re-analysis of the deposited data

How the results depend on the processing

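No called gene changed sign under an alternative of the same baseline. The family medians are small beside the spread of single probes, so that spread says little about their stability. The signs of the median changes turned in up to 4 of 10 settings (Mrpl at 7 h, 4; Mrps at 2 h, 3). They held in all settings run for Mrpl and Tomm at 0.5 and 2 h and Mrps at 21 h. The signs of the median ratios turned in up to 5 of 5 settings (Timm at 0 h, 5, and Tomm at 0 h, 3). They held in all 5 for Mrpl at 7 h, Mrps at 21 h, Timm at 7 and 21 h and Tomm at 0.5 h. The counts of 1 gene higher and 0 lower per time moved as follows. With the threshold divided by the square root of the number of probes, 2, 2, 5 and 2 were higher at 0.5, 2, 7 and 21 h, and 1, 2 and 1 lower at 0.5, 2 and 7 h. With probes counted singly, 3, 2, 4 and 5 were higher and 2, 2, 1 and 1 lower. Among genes with more than 1 probe 0 were higher at 0.5, 2 and 21 h, and a threshold of 1 unit left 0 at 7 and 21 h. Without centring 2 were higher at 2 h and 0 at 7 and 21 h. Quantile normalization gave 1 lower at 2 h and 0 higher at 21 h, cyclic loess 0 higher at 7 h, and the running median 1 lower at 2 h and 2 higher at 7 h. Against the 0.5 h array 1 was lower at 2, 7 and 21 h and 0 higher at 7 and 21 h. The gene lower there was Mrpl46, high on that array (-0.99, -1.33 and -1.33). Against the averaged 0 h and 0.5 h arrays 2 were higher at 2 h, 0 at 7 h, and 1 was lower at 7 and 21 h. Genes with both late arrays above the earlier ones, a comparison chosen after seeing the data, numbered 27 without the 2 h array, 37 of 200 probes singly and 2 without centring; those below numbered 13, 19 and 34, and 10 after quantile normalization. The cause of the other moves was not tested. No paired analysis was possible because each time has 1 array. Depth is not defined for arrays, and dim spots could not be left out.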
